A study of Arabidopsis thaliana with 4 samples.

Results

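Aldehyde dehydrogenases (ALDH) are enzymes that oxidise aldehydes to carboxylic acids with NAD+ or NADP+ as the acceptor. Plants use them to clear reactive aldehydes formed from membrane lipids, amino acids and polyamines, and to finish several biosynthetic and breakdown routes. The family number in a gene's name (ALDH2, ALDH10) groups enzymes by the similarity of their proteins. The genes described here were taken by a rule on the symbol, chosen with earlier results of these data known. It takes genes with a probe set that names exactly 1 gene, with a symbol that begins with ALDH and a number. This gave 8 genes of 7 families out of 13350 genes named in this way on the array, each read by 1 probe set, and no probe set shared between genes named an ALDH. The RefSeq annotation of assembly TAIR10.1 lists 14 genes with such a symbol. The other six (ALDH2B4, ALDH2B7, ALDH3H1, ALDH3I1, ALDH5F1 and ALDH12A1) were not analysed here.

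Transcripts were measured in whole Arabidopsis thaliana seedlings of 2 genotypes, a CDB1 knockout, given as complete, on the Col-0 background (2 arrays) and the Col-0 wild type, stock N1092 (2 arrays). The series title names a protein that binds Polycomb, the chromatin machinery that keeps developmental genes silent. Both groups were at developmental stage 1.02 and shared the growth conditions, 20 °C, 80% humidity, 16 h of light per day and 1/2 MS10 medium. Each Affymetrix ATH1 array gives 1 MAS5 signal per probe set, a linear brightness in arbitrary units that the authors scaled to a trimmed mean of 100 on every array. The labels do not give the mutant allele or the number of lines, and no annotation used here ties the name CDB1 to a gene, so the loss of the targeted transcript was not checked. Nothing in the labels says that replicates came from separate cultures, so the spread behind each p-value is that between arrays and may be a technical one. The test, limma, also pools this spread over probe sets of like brightness. A standard error (SE) or interval printed below is therefore not the gene's own spread alone.

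Of 22746 probe sets, 15924 were at or above a brightness floor, a mean signal of 19.5 over the 4 arrays, and were tested. Replicates were about as alike as arrays of opposite genotype: across tested probe sets, which are not independent, r was 0.982 within the knockout, 0.977 within wild type and up to 0.984 between a knockout and a wild type array. Root markers read above the floor on every array (EXPA7, EXPA18 and PYK10, with log2 fold changes of -0.04 to 0.40). So did those of green tissue (RCA and LHCB4.1, at 0.05 and 0.32). EXPA7 read 28.7 to 55.9 and EXPA18 49.5 to 60.9, against array medians of 47.9 to 50.6. No detection calls were used, so presence was not tested. The value of EXPA7, 0.40, was 0.12 without wild type replicate 1 and 0.69 without wild type replicate 2. Both knockout arrays were above both wild type arrays for EXPA7, EXPA18 and LHCB4.1 (15% over all tested probe sets), while PYK10 and RCA overlapped. The unadjusted limma p was 0.0301 for LHCB4.1 and above 0.05 for the other markers (5.24% of tested probe sets were under 0.05). None of these 5 markers passed the test after adjustment, and the part that tissue make-up plays in any value was not tested. In whole seedlings, fewer cells of a type and less RNA per cell cannot be told apart.

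All 8 ALDH genes read above the floor on every array in both genotypes, with signals of 61 to 1234.2. None of the 8 passed the test for a change in the knockout. Their log2 fold changes, knockout minus wild type on the log2(signal + 16) scale, lay between -0.20 (ALDH3F1) and 0.15 (ALDH6B2). No gene had an unadjusted limma p under 0.05 (5.24% of tested probe sets did), and the limma adjusted p over all tested probe sets was 0.998 for each gene. In the same fit 0.32% of tested probe sets (51 of 15924) passed the threshold of 0.05, and a count of 0 among 8 is close to that background. Every 95% confidence interval held 0. As fold changes of (signal + 16), the 8 intervals reached from 0.68 (ALDH3F1) to 1.36 (ALDH6B2).

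**Figure D1:**
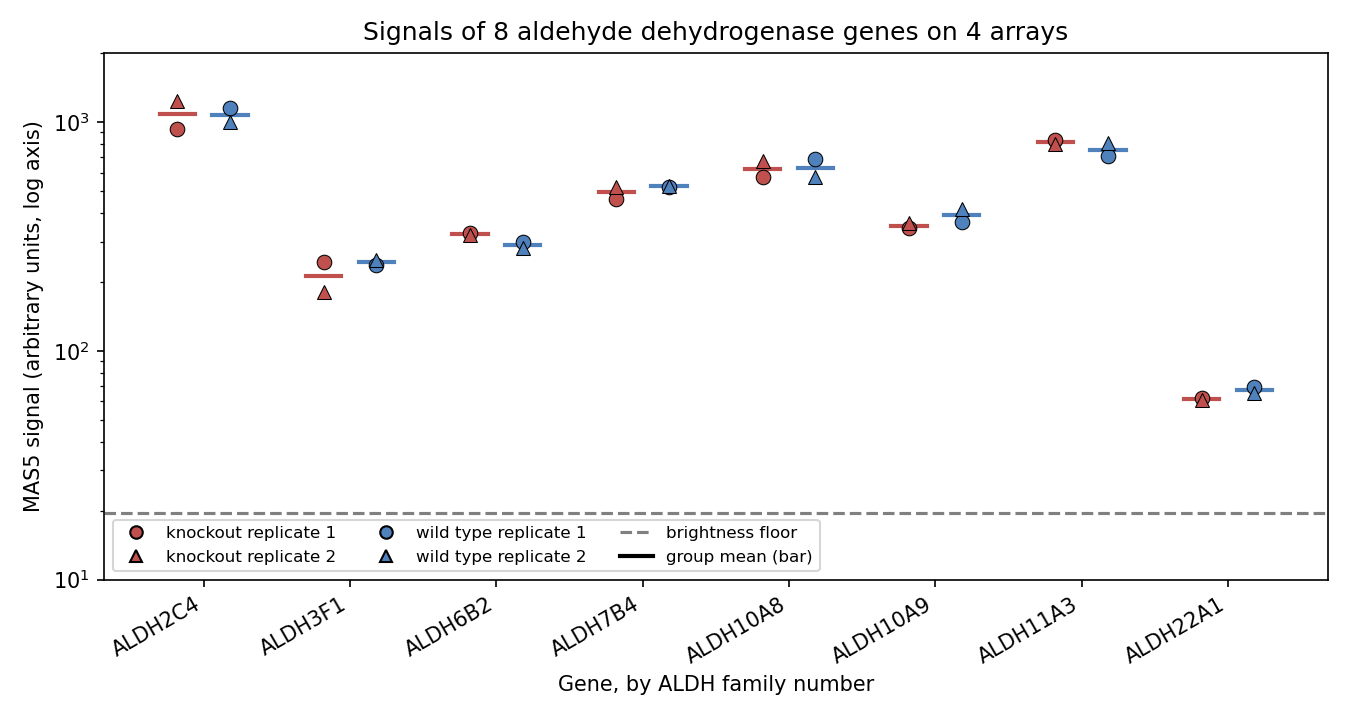
MAS5 signal (log axis, arbitrary units) of the 8 ALDH genes in family order, with knockout arrays left of wild type arrays, 1 point per array and a bar at each group mean. All points lie above the dashed brightness floor of 19.5, and the group means of each gene lie close together. Heights are not comparable between genes, since each probe set has its own response.

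Family 2 was represented by ALDH2C4 (AT3G24503, on chromosome 3), known as REF1, which oxidises coniferaldehyde and sinapaldehyde to ferulic and sinapic acid. Its signal was 934.3 and 1234.2 on knockout arrays 1 and 2, against 1148.2 and 996.2 on wild type arrays 1 and 2. The groups overlapped fully, with the highest and the lowest array both in the knockout. The means were 1084 ± 212 in the knockout and 1072 ± 107 in wild type (SD, n = 2 each), a log2 fold change of 0.01 (SE 0.16, 95% interval -0.34 to 0.35).

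In family 3, ALDH3F1 (AT4G36250, chromosome 4) read 243.6 and 181 in the knockout, against 237.2 and 249.8 in wild type. Plant enzymes of this family are known for oxidising aldehydes released by lipid peroxidation. Knockout array 2 stood below the other three, which lay within a narrow range, and the groups overlapped. The log2 fold change of -0.20 (SE 0.16, interval -0.55 to 0.15), farthest from 0 among the 8, rested on that array: without knockout replicate 2 it was 0.00098, and without knockout replicate 1 it was -0.40.

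ALDH6B2 (AT2G14170, chromosome 2), of family 6, encodes a mitochondrial methylmalonate semialdehyde dehydrogenase, an enzyme of valine breakdown. It read 328.4 and 319.4 in the knockout, against 298.5 and 281.5 in wild type. Both knockout arrays were above both wild type arrays, as for 1 of the 8 genes and for 15% of all tested probe sets. The means of 323.9 ± 6.36 in the knockout and 290 ± 12 in wild type (SD, n = 2 each) gave a log2 fold change of 0.15 (SE 0.13, interval -0.14 to 0.45), which did not pass the test.

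ALDH7B4 (AT1G54100, chromosome 1) belongs to the antiquitin family, family 7, and is known as a gene induced by drought, salt and abscisic acid. Its signals of 462.4 and 520.3 in the knockout, against 521.6 and 524.4 in wild type, did not overlap, but knockout array 2 was just under the lower wild type array. The log2 fold change was -0.09 (SE 0.13, interval -0.38 to 0.21), and -0.01 without knockout replicate 1.

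Among the genes analysed here, family 10 was the only one with a pair, ALDH10A8 (AT1G74920, chromosome 1) and ALDH10A9 (AT3G48170, chromosome 3). Enzymes of this family oxidise aminoaldehydes, such as those from polyamine breakdown, and betaine aldehyde. ALDH10A8 read 573.4 and 672.1 in the knockout, against 688.4 and 573.4 in wild type, so each group held a high and a low array. Its means, 622.8 ± 69.8 in the knockout and 630.9 ± 81.3 in wild type (SD, n = 2 each), gave a log2 fold change of -0.02 (interval -0.34 to 0.31). ALDH10A9 read 342.4 and 359.9 in the knockout, against 365.4 and 414.6 in wild type. Here both knockout arrays were below both wild type arrays, with a log2 fold change of -0.14 (SE 0.14, interval -0.44 to 0.16) that was -0.06 without wild type replicate 2 and -0.23 without wild type replicate 1. The genes also differed in how replicates were ordered: wild type array 1 was the higher of its group for ALDH10A8 and the lower for ALDH10A9.

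ALDH11A3 (AT2G24270, chromosome 2), of family 11, encodes the non-phosphorylating glyceraldehyde 3-phosphate dehydrogenase of the cytosol, which yields NADPH beside glycolysis. It read 835.6 and 797.7 in the knockout, against 706.2 and 804.6 in wild type. Wild type array 1 was lowest and the other three lay close together, with overlap between the groups. The log2 fold change was 0.11 (SE 0.13, interval -0.18 to 0.41), and 0.02 without wild type replicate 1.

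ALDH22A1 (AT3G66658, chromosome 3) is the single member of a plant family, family 22, which has been studied as a stress-induced gene in maize. It read 62.3 and 61 in the knockout, against 69.7 and 65.4 in wild type, so the groups did not overlap. The means were 61.65 ± 0.919 in the knockout and 67.55 ± 3.04 in wild type (SD, n = 2 each). The log2 fold change of -0.11 (SE 0.14, interval -0.42 to 0.21) was the steadiest of those below 0 when single arrays were left out (-0.14 to -0.07).

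**Figure D2:**
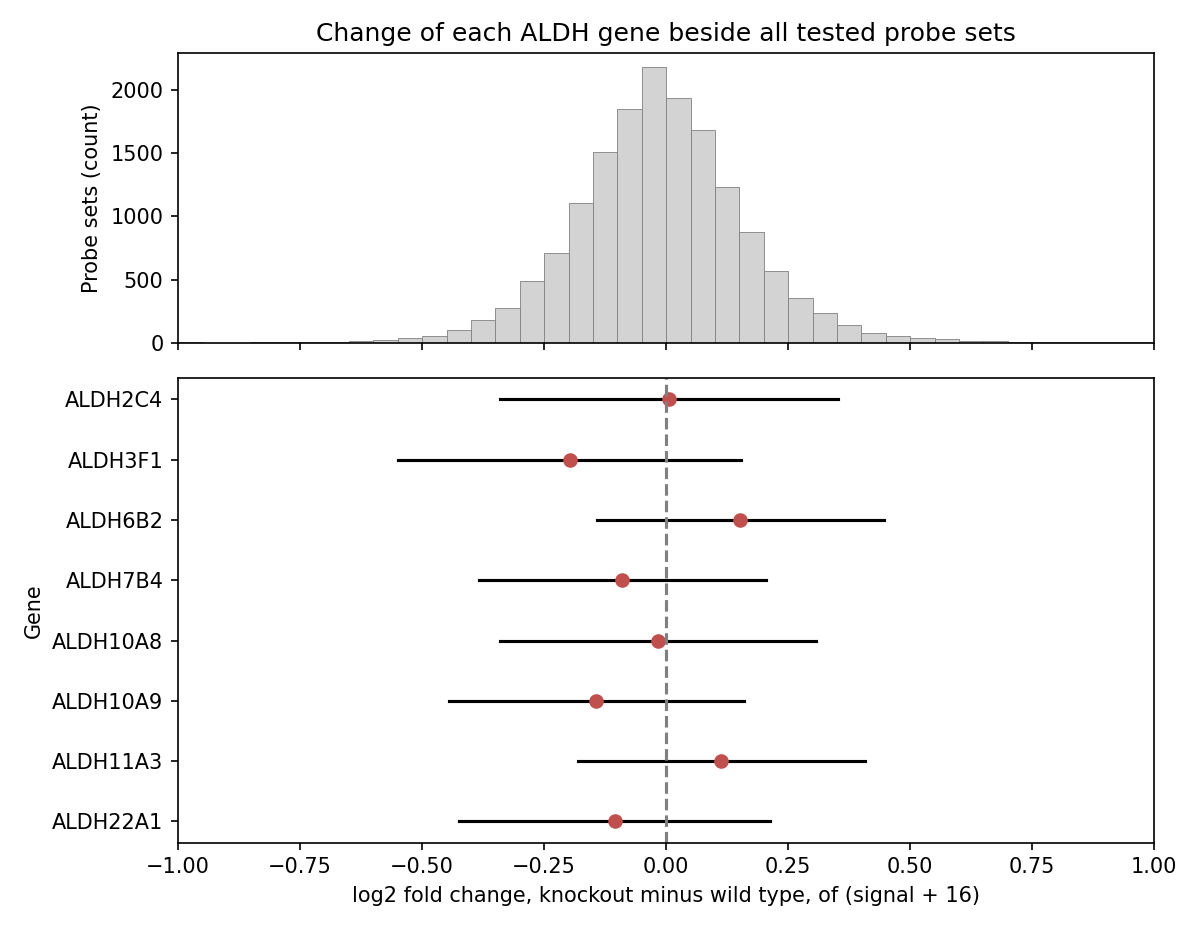
Upper panel: number of tested probe sets by log2 fold change of (signal + 16), knockout minus wild type, in steps of 0.05, with 39 probe sets beyond 1 in either direction left off. Lower panel: each ALDH gene's log2 fold change (point) with its 95% interval (line). The 8 points, from -0.20 to 0.15, fall in the middle of the upper distribution and every line crosses 0.

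As a group the 8 genes moved as little as the array did in general. Of the 8, 3 had a log2 fold change above 0 and 5 below, with a median of -0.05, against a median of -0.01 over all tested probe sets, of which 46% were above and 54% below 0. The median size of the change, without its sign, was 0.11 for the ALDH genes and 0.10 for all tested probe sets. For 6 of the 8 the change was smaller than the larger of the gene's own replicate gaps, as for 79.1% of all tested probe sets. The exceptions were ALDH6B2 and ALDH22A1. Groups did not overlap for 4 of the 8 genes (1 higher and 3 lower in the knockout), against 31.9% of all tested probe sets (15% higher, 16.9% lower). With 2 arrays per genotype, the smallest two-sided p that an exact permutation test of a single gene allows is 0.333.

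Replicates also differed from each other, and these differences ran together in some of the genes. A replicate gap compares single arrays, while the genotype change compares group means, so their sizes are not directly comparable. The median gap between replicates on the log2 scale was 0.12 within the knockout and 0.13 within wild type for the ALDH genes, against 0.15 and 0.17 over all tested probe sets. ALDH2C4 and ALDH10A8 were brightest on knockout array 2 and wild type array 1, an order shared by 20.4% of tested probe sets. ALDH3F1 and ALDH11A3 had knockout array 1 and wild type array 2 among the brightest pair, as did 22.7%. The ratio of 3′ to 5′ signal of control genes, a measure of RNA integrity and labelling, split the arrays in the same way for actin and GAPDH but not for ubiquitin. For actin it was 2.49 and 1.90 on knockout arrays 1 and 2, and 1.83 and 2.51 on wild type arrays 1 and 2. For GAPDH it was 1.28 and 1.12 in the knockout and 1.13 and 1.34 in wild type. The ubiquitin control was at 1.57 and 1.67 in the knockout and 1.66 and 1.90 in wild type. With the older control probe sets only GAPDH kept this split, at 1.64 and 1.16 in the knockout and 1.13 and 1.64 in wild type. Actin by the older probe sets separated the genotypes, at 5.01 and 4.85 in the knockout and 9.42 and 7.24 in wild type, while ubiquitin, at 2.19 and 2.56 in the knockout and 2.34 and 2.36 in wild type, did neither. The large-subunit ribosomal RNA control also separated the genotypes, with signals of 2196 and 992.3 in the knockout and 556.1 and 841.1 in wild type. The part of RNA integrity or of ribosomal RNA in the ALDH signals was not tested.

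Genes of pathways that adjoin the ALDH enzymes were covered thinly. Of 58 genes on 8 lists, 11 had a probe set naming them alone, and all 11 were tested. None passed the limma adjusted p of 0.05 in either direction. The lists were chosen with earlier results of these data known. Of the 11, 8 lay above 0 and 3 below, with a median of 0.20, and on 6 both knockout arrays were above both wild type arrays (15% over all tested probe sets). Without adjustment, 3 of the 11 had a limma p under 0.05 (5.24% over all tested probe sets), namely AT5G38710, MCCA and AOR. The lists for the GABA shunt and for polyamine oxidation had no gene tested. Some lists adjoin ALDH genes that were not analysed here. These are the lists for proline (ALDH12A1 and ALDH18), the GABA shunt (ALDH5F1) and the route from pyruvate to acetyl-CoA (ALDH2B4 and ALDH2B7).

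Beside ALDH6B2, the list for breakdown of branched chain amino acids held 3 tested genes, all of the leucine branch. MCCA, a subunit of methylcrotonyl-CoA carboxylase, read 102.9 and 90.2 in the knockout, against 54.8 and 68.7 in wild type (log2 fold change 0.54, SE 0.16, limma adjusted p = 0.406). MCCB, the other subunit of that enzyme, read 173 and 140.6 in the knockout, against 134.4 and 134 in wild type, a log2 fold change of 0.20 that was 0.06 without knockout replicate 1 and 0.33 without knockout replicate 2. IVD, isovaleryl-CoA dehydrogenase, had 92.6 and 87.9 in the knockout and 75.9 and 66.5 in wild type, a log2 fold change of 0.29. On these 3 genes and on ALDH6B2 both knockout arrays were above both wild type arrays (15% over all tested probe sets). On none of the 4 did the difference pass the test.

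On the proline list, AT5G38710 was entered as PRODH2, a name that the annotation used here does not give. It read 83.2 and 68.4 in the knockout, against 45.8 and 48 in wild type (log2 fold change 0.54, SE 0.15, limma adjusted p = 0.378). DELTA-OAT, the ornithine aminotransferase whose product is shared with the proline route, read 188.1 and 177.3 in the knockout, against 166 and 128.2 in wild type, a log2 fold change of 0.29 that was 0.13 without wild type replicate 2 and 0.46 without wild type replicate 1. For these genes both knockout arrays were above both wild type arrays (15% over all tested probe sets), and neither gene passed the test.

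Other enzymes that clear reactive carbonyls gave mixed values. AOR, a reductase of reactive alkenals, read 433.9 and 474.8 in the knockout, against 369.7 and 337.3 in wild type (log2 fold change 0.35, limma adjusted p = 0.827). AER, an alkenal reductase, overlapped between the groups, at 303.5 and 196.9 in the knockout and 194.9 and 267.9 in wild type. In the route from pyruvate through acetate to acetyl-CoA, PDC2, a pyruvate decarboxylase, and ACS, an acetyl-CoA synthetase, had log2 fold changes of -0.11 and 0.09. GAPC2, the phosphorylating counterpart of ALDH11A3 in the cytosol, was at -0.06, and HCT, of the phenylpropanoid route that feeds ALDH2C4, at -0.07. All 4 of these genes overlapped between the groups.

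**Figure D3:**
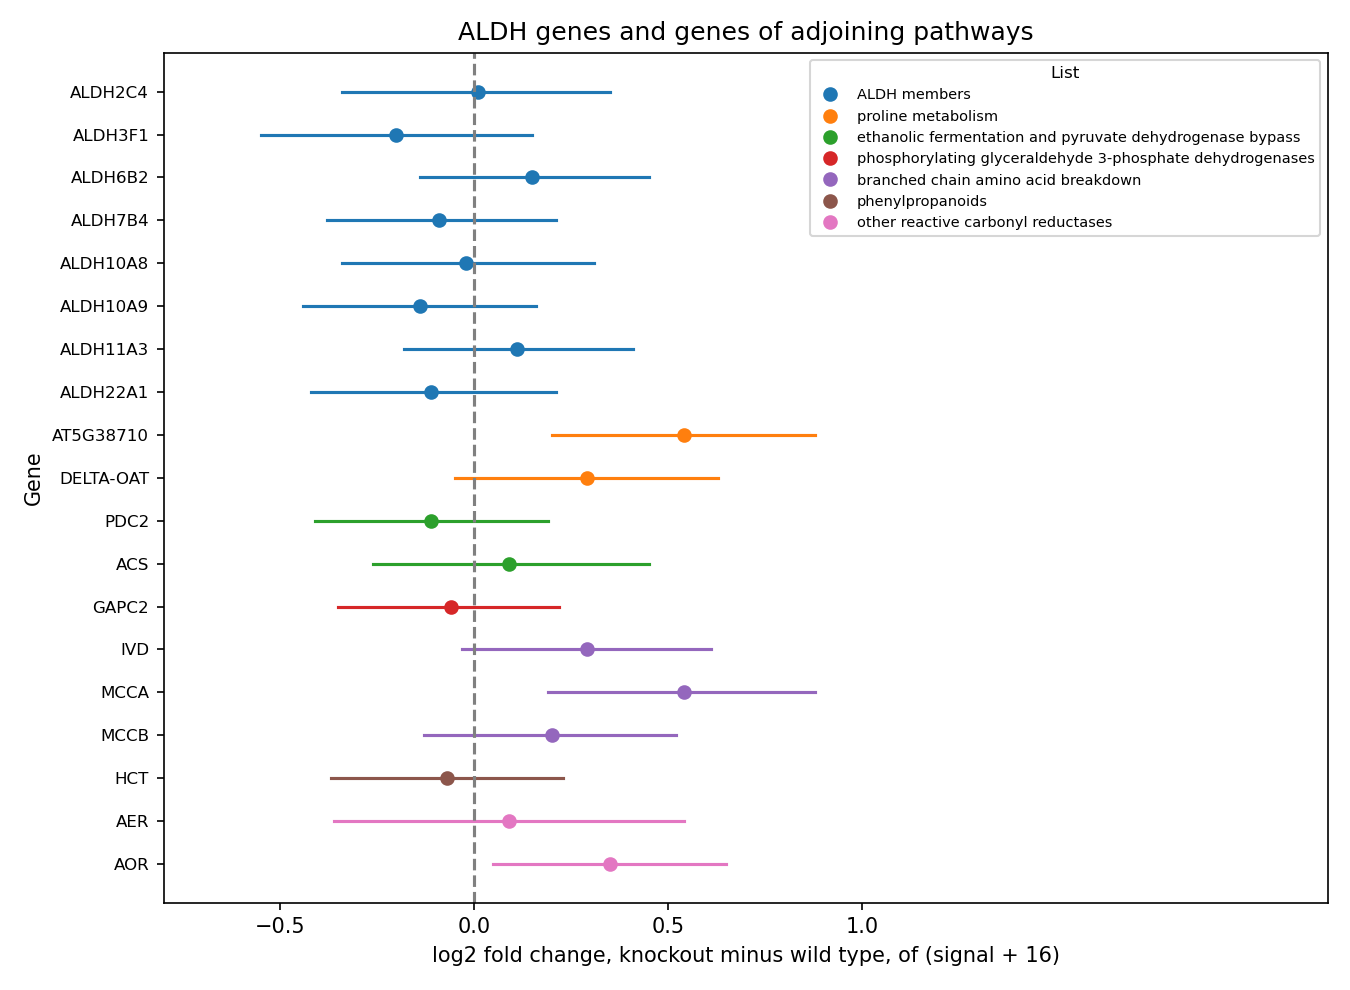
Log2 fold change of (signal + 16), knockout minus wild type (points), with 95% intervals (lines), for the 8 ALDH genes and the 11 tested genes of adjoining pathways, coloured by list. The ALDH points lie between -0.20 and 0.15, while AT5G38710 and MCCA, both at 0.54, lie farthest from 0. No gene shown passed the adjusted threshold.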

How the data were processed

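The deposited table holds linear MAS5 signal intensities of 4 ATH1 arrays, which the authors made and scaled with MAS5, per the submitters' processing notes. The sources used here give neither its version nor its settings. Replicates were not copies, since values were equal for 246 of 22746 probe sets within the knockout and for 178 within wild type. Control probe sets (64) and probe sets under the 30th percentile of mean signal were left out. Signals were transformed to log2(signal + 16), which understates changes of dim genes, and tested with limma 3.58.1 under R 4.3.3. The two-sided test used lmFit and eBayes with a trend on intensity, and p-values were adjusted by Benjamini-Hochberg over all 15924 tested probe sets (threshold 0.05). The spread pooled from other probe sets carried a weight of 8.82 degrees of freedom in each gene's SE. The number of arrays limits the precision. The procedure was tested on simulated data, with changes larger than that of any ALDH gene. That test does not show how well changes of the size seen in the ALDH genes are found.

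Names came from the platform's annotation table, which can be old, updated through gene numbers against RefSeq (TAIR10.1): 13513 probe sets named 1 gene, 503 several, and 8730 were not listed. No coordinates are printed, since no source used here names the build of the array design. Every ALDH gene, the tested genes of each pathway list (up to 3 of the largest change) and the markers were named by rule. The members, lists and tests were chosen with earlier results of these data known.

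The alternatives tried were median centring, quantile normalization, a pseudocount of 1 or 64, a 50th percentile filter or none, eBayes without trend, a block for the replicate number, leaving out each array, and taking all probe sets of a gene in place of the brightest.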

Additional observations from a re-analysis of the deposited data

How the results depend on the processing

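No ALDH gene passed the threshold under any of the 12 alternatives (lowest limma adjusted p 0.86), nor with crossed pairing of the replicates, chosen after seeing the data. No ALDH gene had an unadjusted limma p under 0.05 in a fit that kept every array. Without knockout replicate 1, ALDH3F1 was at -0.40. Its p-value there was not read, since a lone array gives the knockout no spread of its own. The count of 51 called probe sets was less stable: it was 0 with no filter (1081 at an unadjusted p under 0.05), 89 with the replicate block, 195 with crossed pairing, and 20 (without knockout replicate 2) to 87 (without wild type replicate 1) with 1 array left out, 23 without knockout replicate 1; the cause was not tested. With 1 array left out, the lone array is assumed to vary like the other group. The replicate numbers share only a label, and replicate differences of the groups were correlated at -0.301 across probe sets. The replicate block left the ALDH median at -0.05 and the ALDH count at 0. That median ranged from -0.11 to 0.04 with 1 array left out.

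Of 96 values of the 8 genes under the alternatives, 7 changed sign, in 3 genes. ALDH2C4 was at -0.01 after quantile normalization and ranged from -0.19 to 0.20 with 1 array left out. ALDH10A8 was at 0.02 after median centring and ranged from -0.15 to 0.11, and ALDH3F1 from -0.40 to 0.00098, with 1 array left out. The other five kept their sign. Among the pathway genes and markers, values changed sign only when an array was left out, for ACS (-0.07 to 0.26), GAPC2 (-0.16 to 0.04), HCT (-0.19 to 0.05), AER (-0.20 to 0.38), PYK10 (-0.14 to 0.05) and RCA (-0.06 to 0.16). Each ALDH gene had 1 probe set, so using all probe sets of a gene gave no other value.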
